A study of Mus musculus with 75 samples.

Results

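Medulloblastoma allografts taken 12 h after 1 dose of MK4101 at 80 mpk were compared with allografts taken 12 h after vehicle. The 8 arrays, 4 per group, were chosen by their titles from 75 arrays in 19 groups of single (QD) and multiple (BID) dosing. The labels call MK4101 an SHH (sonic hedgehog) pathway inhibitor, and it is known as an antagonist of Smoothened, and mpk is the labels' unit for mg per kg. The treated group was a QD 80 mpk MK4101 group and its control a QD vehicle group of the same time. Tumours of every group derived from Ptch1+/- mice and were carried by nude CD1 hosts, so the Ptch1 lesion was shared by treated and vehicle arrays. Set beside them were QD groups of 80 mpk at 6 h (3 arrays, with 5 vehicle arrays), of 80 mpk at 24 h (4 arrays, with 5 vehicle arrays) and of 40 mpk at 12 h (3 arrays). The labels give neither the number of source tumours nor whether the arrays of a group came from separate mice. The p-values thus measure the spread between arrays within groups, pooled over all 19 groups. Nude hosts lack thymus-derived T cells and keep neutrophils, macrophages and natural killer cells, and RNA of the whole allograft holds host transcripts.

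In the hedgehog pathway a secreted ligand binds Ptch1, the receptor that otherwise holds the membrane protein Smoothened (Smo) inactive. Active Smo frees the Gli transcription factors, and Gli1, Ptch1 and Hhip are themselves among the genes that Gli factors switch on. Precursors of cerebellar granule neurons multiply under Shh, and loss of Ptch1 in this lineage gives rise to medulloblastoma.

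Values are scaled intensities, a linear scale on which every array has a mean of 1. Differences are on the log2 scale, 80 mpk minus vehicle, with the standard error (SE) of a limma fit over all 75 arrays (4 arrays per 12 h group unless given), and a gene was called where its adjusted p was under 0.05 over 21552 genes. Array medians were 0.118 to 0.128 in the 80 mpk group and 0.118 to 0.125 in the vehicle group, and the lowest correlation between any pair of the 8 arrays was 0.973. The tissue label was checked against markers. The granule lineage factor Atoh1 stood at 25.8 to 29.2 in 80 mpk arrays and 17.7 to 21.3 in vehicle arrays, and Zic1, another factor of that lineage, at 32.2 to 38.5 and 23.0 to 30.7. Gabra6, a receptor subunit of mature granule neurons, was at 0.0442 to 0.0601 in 80 mpk arrays and 0.0521 to 0.0724 in vehicle arrays. Host transcripts were uneven between arrays. Skeletal muscle list means (14 genes, mean log2) were -0.62, 2.92, -3.04 and 1.09 in 80 mpk replicates 1 to 4, against 3.65, -3.15, -3.23 and -3.13 in vehicle replicates 1 to 4, so 80 mpk replicates 2 and 4 and vehicle replicate 1 were rich in muscle transcripts. Neutrophil list means (10 genes) were -3.60, -3.23, -2.75 and -3.39 in 80 mpk arrays, against -3.74, -3.46, 0.05 and -1.57 in vehicle arrays, so vehicle replicates 3 and 4 stood above the other 6 arrays.

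At 12 h limma called 829 genes higher (3.85% of 21552) and 1291 lower (5.99%). At an unadjusted p under 0.05 it had 4381 of the 21552 genes, both directions together. Changes of at least 2-fold were fewer and mostly losses, with 33 genes higher (0.153%) and 155 lower (0.719%). The median difference over all genes was -0.01, with quartiles of -0.13 and 0.10. After a second quantile normalization the split was 1062 higher and 1045 lower. With only the groups compared in the fit there were 405 higher and 602 lower. Without vehicle replicate 3 there were 549 higher and 1150 lower, and without vehicle replicates 3 and 4 together 426 higher and 812 lower.

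Counts of list genes called at 12 h with 80 mpk, here and below, stand beside 5.99% of all genes lower and 3.85% higher. Hedgehog signalling was examined first, from ligand to target. Gli1, the Gli factor that is also the usual readout of the pathway, was at 0.108, 0.114, 0.0959 and 0.149 in the 80 mpk arrays, against 2.11, 3.04, 2.21 and 3.09 in the vehicle arrays. The 80 mpk arrays all lay below the vehicle arrays, 22.3-fold lower by geometric mean and a difference of -4.48 ± 0.22 (adjusted p = 2.07e-24). In bulk tumour RNA, fewer cells of a type and less RNA per cell cannot be told apart. limma called 0 of the 3 ligand genes, 0 also at an unadjusted p under 0.05, and Shh, Ihh and Dhh differed by -0.04, -0.14 and -0.04.

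At the membrane Ptch1, Hhip and Boc fell, and the transducer Smo did not pass the test. Of 6 measured receptors and co-receptors 3 fell, with a median difference of -0.59. Ptch1 was at 6.97, 6.46, 5.87 and 7.25 in the 80 mpk arrays, against 17.9, 18.8, 18.4 and 22.6 in the vehicle arrays, a difference of -1.55 ± 0.12 (adjusted p = 3.38e-16) with no overlap, and its 3 probe sets differed by -1.55, -1.09 and -0.96. Hhip, which binds and traps ligand, was at 0.0702, 0.0772, 0.0829 and 0.0737 in the 80 mpk arrays, against 0.197, 0.202, 0.180 and 0.233 in the vehicle arrays. Its difference was -1.42 ± 0.25 (adjusted p = 2.34e-05), while the 2 dimmer probe sets gave -0.70 and -0.40, the last of these not called. Boc, a co-receptor that helps ligand reach Ptch1, was at 1.51, 1.21, 1.29 and 1.41 in the 80 mpk arrays, against 2.96, 2.80, 2.49 and 3.14 in the vehicle arrays and fell by 1.07 on the log2 scale (adjusted p = 6.74e-07). The groups did not overlap for Hhip or Boc. The other co-receptors, Cdon and Gas1, differed by 0.08 ± 0.10 and -0.10 ± 0.13, neither called. Smo, the labelled pathway's transducer and the known target of the compound, was at 4.12, 3.14, 3.04 and 3.39 in the 80 mpk arrays, against 3.43, 3.37, 2.90 and 3.58 in the vehicle arrays. These ranges overlapped and the difference was 0.04 ± 0.13 (adjusted p = 0.929).

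Within the cell Gli2 fell as Gli1 did, while Gli3 and Sufu gave no call. Of 12 transduction genes 3 fell and 1 rose (median -0.20). Gli2, the main activator upstream of Gli1, was at 0.837, 0.737, 0.691 and 0.999 in the 80 mpk arrays, against 2.11, 2.10, 1.88 and 2.52 in the vehicle arrays, a difference of -1.41 ± 0.17 (adjusted p = 2.89e-09) with no overlap. A second, dim Gli2 probe set differed by -0.06 and was not called. Gli3, which acts largely as a repressor, differed by -0.09 ± 0.13 and Sufu, the inhibitor that holds Gli proteins in the cytoplasm, by -0.33 ± 0.13, neither called. Spop, an adaptor of the ligase that degrades Gli proteins, fell by 0.53 on the log2 scale (adjusted p = 1.12e-05). Stk36, the mammalian relative of the fly kinase fused, was the 1 gene of the list that rose. It was at 0.234, 0.140, 0.140 and 0.200 in the 80 mpk arrays, against 0.112, 0.0747, 0.107 and 0.122 in the vehicle arrays, a difference of 0.77 ± 0.15 (adjusted p = 0.000212), and the groups did not overlap.

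The hedgehog target list had 8 of 16 genes lower and 1 higher (median -0.43). Its largest fall was again that of Gli1 (-4.48), so the count is not separate from the genes above. Bcl2, an inhibitor of cell death, fell by 0.55 (adjusted p = 0.000425), the Notch ligand Jag2 by 0.46 (adjusted p = 0.00394) and the repressor Hes1 by 0.45 (adjusted p = 0.0402). The Hes1 call was lost with any of 5 arrays left out singly (80 mpk replicate 1 or 3, vehicle replicate 1, 2 or 4), where adjusted p = 0.0628 to 0.176. Mycn and Ccnd2, which drive proliferation of granule precursors, differed by 0.10 ± 0.10 and 0.04 ± 0.12, neither called. The growth factor Igf2 (0.49) and the Wnt antagonist Sfrp1 (-0.36) were not called either, although the 4 arrays of each group did not overlap for either gene. The member that rose was Atoh1, described with the lineage factors. The receptor count was 3 of 6 both without vehicle replicate 3 and without vehicle replicates 3 and 4 together, and the target count was 8 and 7 lower.

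**Figure D1:**
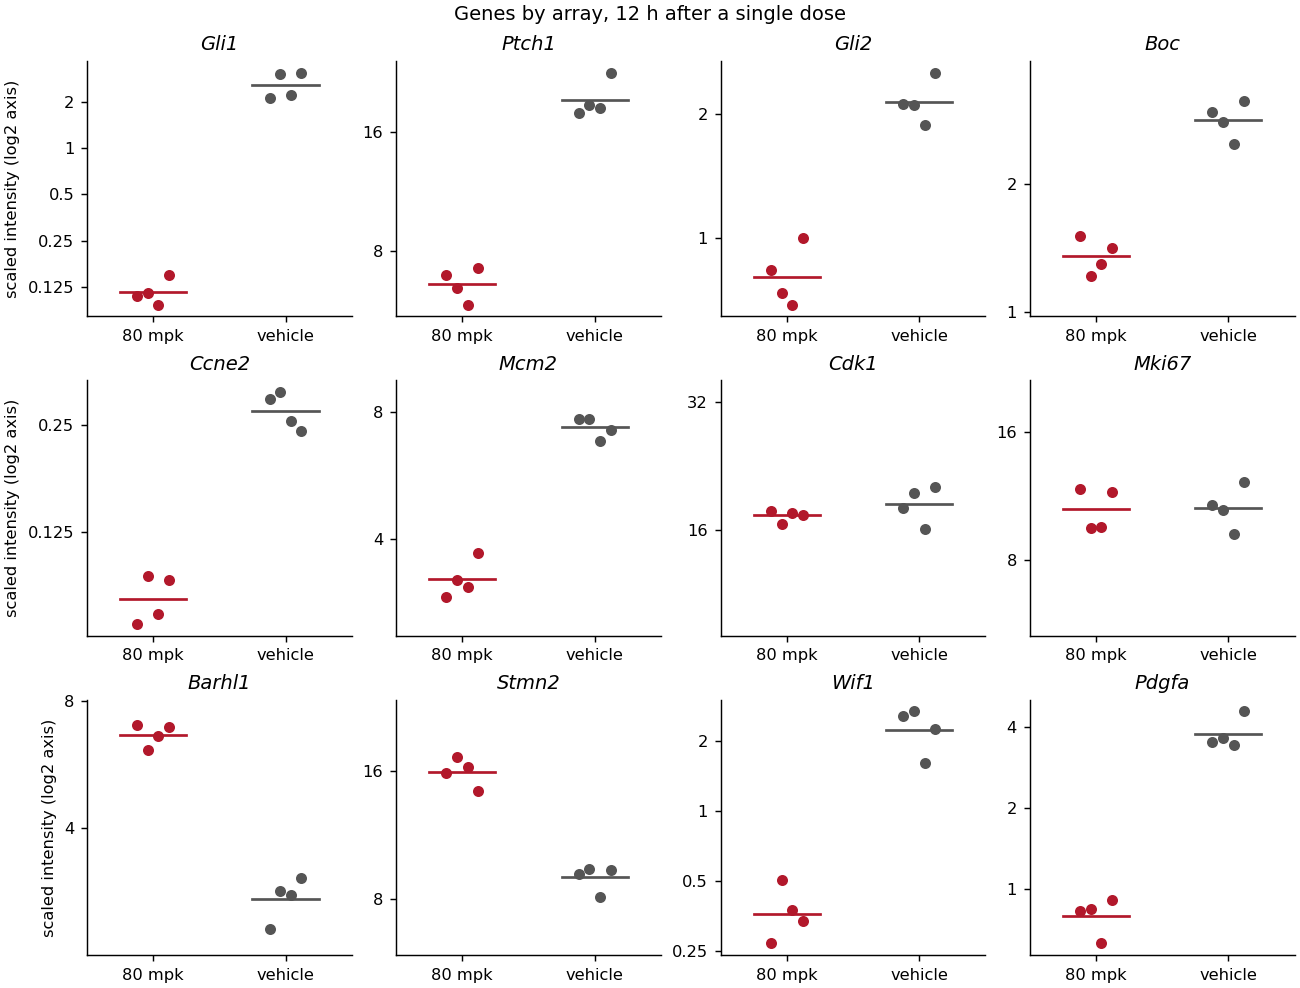
Scaled intensity (log2 axis, a separate range per gene) of 12 genes in the 4 arrays of each 12 h group, 80 mpk on the left and vehicle on the right, 1 point per array and a line at the geometric mean. Gli1 lies at 0.0959 to 0.149 with 80 mpk and 2.11 to 3.09 with vehicle, Ccne2 and Mcm2 separate in the same direction, Barhl1 and Stmn2 in the opposite one, and Cdk1 and Mki67 overlap.

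Entry into S phase is driven by cyclin D with Cdk4 or Cdk6, then by cyclin E with Cdk2, and these release E2F factors from the pocket proteins. Among 12 G1 cyclins, kinases and pocket proteins 7 fell and none rose (median -0.59). Ccnd1, the D cyclin long known to respond to hedgehog signalling, was at 9.47, 9.89, 8.24 and 10.9 in the 80 mpk arrays, against 21.1, 18.1, 17.5 and 20.9 in the vehicle arrays. Its kinase Cdk6 was at 4.68, 3.83, 3.67 and 5.53 in the 80 mpk arrays, against 10.04, 8.78, 8.63 and 11.6 in the vehicle arrays. Both genes were lower in every 80 mpk array than in any vehicle array, by 1.01 and 1.15 on the log2 scale (adjusted p = 4.26e-09 and adjusted p = 1.67e-08). The 6 Cdk6 probe sets differed by -0.33 to -1.15, and Cdk4, the other partner of D cyclins, differed by 0.03 ± 0.07 and was not called.

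Ccne2 had the largest fall of the G1 list. It was at 0.0684, 0.0938, 0.0730 and 0.0910 in the 80 mpk arrays, against 0.297, 0.310, 0.257 and 0.241 in the vehicle arrays, a difference of -1.77 ± 0.17 (adjusted p = 3.10e-12), with no overlap. A second, dimmer Ccne2 probe set differed by -0.06 and was not called. Ccne1 fell by 0.75, Cdk2 by 0.66 and the phosphatase Cdc25a, which activates Cdk2, by 0.94. Without the muscle-rich arrays Cdk2 was not called (-0.56, adjusted p = 0.122). Among 10 E2F genes 6 fell and none rose, and in both lists limma had 0 genes higher at an unadjusted p under 0.05. E2f7 and E2f2 had the largest falls, of 1.09 and 1.03, and E2f1 fell by 0.63. In the opposite direction, 2 of 7 CDK inhibitor genes rose. Cdkn1b (p27), which restrains cyclin E with Cdk2, was at 17.3, 19.3, 20.0 and 18.0 in the 80 mpk arrays, against 12.9, 15.3, 12.1 and 15.4 in the vehicle arrays, a difference of 0.43 ± 0.09 (adjusted p = 0.000901). Cdkn1c (p57) was at 3.73, 4.87, 4.53 and 3.75 in the 80 mpk arrays, against 2.63, 3.20, 2.67 and 2.99 in the vehicle arrays, a difference of 0.55 ± 0.15 (adjusted p = 0.0112). For both inhibitors the 80 mpk arrays all lay above the vehicle arrays. The Cdkn1c call was lost without 80 mpk replicate 2 (0.48, adjusted p = 0.0609), without vehicle replicates 3 and 4 (0.53, adjusted p = 0.0961) and without the muscle-rich arrays (0.48, adjusted p = 0.153), and Cdkn1b was called in each case. The p53 target Cdkn1a (p21) differed by -0.66 ± 0.25 without a call.

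The DNA replication machinery was lower almost throughout. Of 53 genes in 3 replication lists 44 fell and 0 rose, with a median difference of -0.58, against 5.99% of all genes lower and a median of -0.01. All 4 treated arrays lay below all 4 vehicle arrays for 44 of these genes, against 6.84% of all genes (5.54% lay wholly above). At an unadjusted p under 0.05 the limma fit had 50 of the 53 lower and 0 higher. Origin licensing and firing had 18 of 20 genes lower. Mcm2, a subunit of the hexamer that unwinds DNA, was at 2.91, 3.21, 3.09 and 3.70 in the 80 mpk arrays, against 7.70, 7.70, 6.81 and 7.23 in the vehicle arrays, a difference of -1.19 ± 0.13 (adjusted p = 9.38e-11). Mcm4 of the same hexamer was at 3.74, 4.16, 3.92 and 5.26 in the 80 mpk arrays, against 9.68, 9.98, 8.77 and 9.08 in the vehicle arrays, a difference of -1.15 ± 0.10. Orc1, the origin recognition subunit that marks where licensing starts, was at 0.184, 0.148, 0.199 and 0.224 in the 80 mpk arrays, against 0.451, 0.467, 0.322 and 0.386 in the vehicle arrays, a difference of -1.11 ± 0.14 (adjusted p = 2.30e-08). For these 3 genes the groups did not overlap, with falls of over 2-fold. Mcm3, Mcm10, Cdt1 and Cdc45 fell by 1.25, 1.17, 1.02 and 1.01, while Gins2 and the kinase activator Dbf4 were not called (-0.31 and -0.16).

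At the fork 19 of 24 genes fell. Pcna, the clamp that tethers polymerases, was at 14.8, 16.8, 16.6 and 15.03 in the 80 mpk arrays, against 23.6, 26.8, 22.3 and 21.6 in the vehicle arrays, a difference of -0.58 ± 0.09 (adjusted p = 6.52e-06). The groups did not overlap, with a change of under 2-fold. Larger falls were found for the histone chaperones Chaf1b (-1.09) and Chaf1a (-1.01), for Lig1 (-0.90), which joins Okazaki fragments, and for the leading strand polymerase Pole (-0.90). Among 9 genes of deoxynucleotide supply 7 fell, among them Shmt1 (-0.93), Tk1 (-0.71) and Tyms (-0.70). Rrm2, the regulated subunit of ribonucleotide reductase, differed by -0.55 ± 0.27 (adjusted p = 0.23), which did not pass. Genes of homologous recombination and the replication checkpoint moved the same way, 13 of 14 lower (median -0.71). Clspn, which passes the stalled fork signal to Chek1, was at 1.097, 0.909, 1.02 and 1.41 in the 80 mpk arrays, against 2.46, 2.37, 2.02 and 2.59 in the vehicle arrays, a difference of -1.10 ± 0.13 (adjusted p = 3.88e-09). Chek1 fell by 0.90 and Brca1 by 0.89, and Fancd2 (-0.19 ± 0.14) was the member without a call. Hells, a chromatin remodeller active in S phase, was at 1.57, 1.85, 1.57 and 2.15 in the 80 mpk arrays, against 5.62, 5.93, 4.67 and 4.65 in the vehicle arrays and fell by 1.55 (adjusted p = 4.01e-14).

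Most mitotic genes, in contrast, did not pass the test at this time. Of 47 genes in 3 mitosis lists 5 fell and 1 rose, with a median of -0.06, against 5.99% of all genes lower and 3.85% higher. At an unadjusted p under 0.05 the limma fit had 8 of the 47 lower and 5 higher, against 4381 of all 21552 genes, both directions together. The 22 spindle, kinetochore and cytokinesis genes had 1 call, and their median was within 0.03 of 0 with or without a second quantile normalization. Cdk1, the kinase that drives entry into mitosis, was at 17.8, 16.5, 17.6 and 17.4 in the 80 mpk arrays, against 18.0, 19.6, 16.1 and 20.1 in the vehicle arrays. Mki67, the gene of the proliferation antigen Ki-67, was at 11.8, 9.49, 9.56 and 11.5 in the 80 mpk arrays, against 10.8, 10.5, 9.21 and 12.2 in the vehicle arrays. In both genes the groups overlapped, in Cdk1 only through vehicle replicate 3. The differences were -0.09 ± 0.11 and -0.01 ± 0.13 (adjusted p = 0.746 and adjusted p = 0.984). Without vehicle replicate 3 Cdk1 differed by -0.15, adjusted p = 0.595. The kinase Plk1 differed by 0.04 ± 0.13. Ccnb2, the B cyclin that partners Cdk1, was the 1 gene that rose. It was at 6.86, 6.20, 6.72 and 6.06 in the 80 mpk arrays, against 5.05, 5.20, 3.82 and 5.01 in the vehicle arrays, a difference of 0.45 ± 0.14 (adjusted p = 0.0243), and without vehicle replicate 3, the lowest vehicle array, it differed by 0.34, adjusted p = 0.166.

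The 5 mitosis list genes that fell included 2 kinases that restrain Cdk1. Wee1, the kinase that holds Cdk1 inactive, was at 1.72, 1.81, 1.90 and 1.79 in the 80 mpk arrays, against 3.01, 2.91, 2.43 and 2.66 in the vehicle arrays, a difference of -0.60 ± 0.12 (adjusted p = 0.00011) with no overlap. Its relative Pkmyt1 fell by 0.39 (adjusted p = 0.0489), the kinase Melk by 0.48 (adjusted p = 0.0084), the centromere protein Incenp by 0.40 (adjusted p = 0.0136) and Fbxo5, an inhibitor of the anaphase-promoting complex, by 0.40 (adjusted p = 0.0247). This count of 5 was 2 without 80 mpk replicate 2 and 3 without 80 mpk replicate 3 or vehicle replicate 1, 2 or 4. The calls lost were those of Pkmyt1, Incenp and Fbxo5. Melk was not called without the muscle-rich arrays (-0.47, adjusted p = 0.0883). The replication count was 40 to 45 with any 1 of the 8 arrays left out. By array, replication list means (mean log2) were 0.73, 0.76, 0.77 and 0.85 with 80 mpk and 1.46, 1.54, 1.24 and 1.43 with vehicle. Mitosis list means were 1.40, 1.20, 1.31 and 1.38 with 80 mpk and 1.40, 1.44, 1.13 and 1.49 with vehicle. The replication means did not overlap. The mitosis means overlapped only through vehicle replicate 3, the lowest of the 8 arrays. Vehicle replicates 1, 2 and 4 lay above every 80 mpk array, replicate 1 narrowly (1.402 against 1.395 in 80 mpk replicate 1).

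Promoters of both groups are shown for the motif letters counted after them, from RefSeq on build GRCm38.p6, which need not be the build of the array. Each run is the 250 bases before the annotated start, 5' to 3' on the gene's strand. Capitals mark matches, on either strand, to TTTCGCGC, TTTGGCGC or TTTCCCGC (forms of the E2F site) in 3 replication genes that fell, and to TTTGAA (the core of the cell cycle homology region, CHR) in 3 mitotic genes. Matches that overlap on opposite strands are marked as 1 run. The Cdk1 run also holds the E2F form TTTCGCGC, left in lower case, and of the 6 runs it alone holds both motifs.
Mcm6, chr1:128359706-128359955, minus strand: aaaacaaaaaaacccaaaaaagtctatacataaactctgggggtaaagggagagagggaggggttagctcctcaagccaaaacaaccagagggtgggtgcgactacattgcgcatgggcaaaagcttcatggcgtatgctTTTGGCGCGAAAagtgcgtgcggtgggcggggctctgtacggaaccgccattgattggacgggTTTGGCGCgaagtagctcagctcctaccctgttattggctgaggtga
Orc1, chr4:108579204-108579453, plus strand: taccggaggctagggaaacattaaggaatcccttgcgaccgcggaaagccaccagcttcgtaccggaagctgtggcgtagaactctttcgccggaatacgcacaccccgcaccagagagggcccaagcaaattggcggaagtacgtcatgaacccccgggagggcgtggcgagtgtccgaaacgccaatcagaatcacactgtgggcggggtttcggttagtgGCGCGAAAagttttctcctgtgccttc
Mcm5, chr8:75109259-75109508, plus strand: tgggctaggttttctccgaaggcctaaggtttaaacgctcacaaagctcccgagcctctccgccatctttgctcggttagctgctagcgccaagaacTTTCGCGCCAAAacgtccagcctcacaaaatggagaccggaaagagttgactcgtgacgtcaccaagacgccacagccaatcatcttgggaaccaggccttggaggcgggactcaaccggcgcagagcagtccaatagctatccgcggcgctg
Cdk1, chr10:69352913-69353162, minus strand: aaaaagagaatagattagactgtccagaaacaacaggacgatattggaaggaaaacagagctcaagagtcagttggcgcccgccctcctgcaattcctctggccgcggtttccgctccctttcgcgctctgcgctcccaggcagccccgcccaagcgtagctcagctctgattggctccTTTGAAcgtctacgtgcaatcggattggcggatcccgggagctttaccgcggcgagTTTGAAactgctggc
Ccnb2, chr9:70421555-70421804, minus strand: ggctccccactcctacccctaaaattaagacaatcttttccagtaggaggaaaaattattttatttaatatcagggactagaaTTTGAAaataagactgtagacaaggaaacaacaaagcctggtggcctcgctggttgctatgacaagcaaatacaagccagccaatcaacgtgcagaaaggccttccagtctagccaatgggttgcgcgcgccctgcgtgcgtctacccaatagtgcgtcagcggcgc
Cdc20, chr4:118437344-118437593, minus strand: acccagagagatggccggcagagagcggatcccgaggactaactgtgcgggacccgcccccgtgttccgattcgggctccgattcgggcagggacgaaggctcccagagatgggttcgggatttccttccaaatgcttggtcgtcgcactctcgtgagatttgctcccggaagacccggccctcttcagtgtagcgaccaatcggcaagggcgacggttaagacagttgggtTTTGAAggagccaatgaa
The motifs were counted in windows from 250 bases before to 50 after the start, held for 16854 of the 21552 genes. An E2F form was present in 16 of 45 replication list genes with a window (35.56%) and 1 of 37 mitosis list genes (2.70%), against 2.88% of all genes, and that mitosis gene is Cdk1. TTTGAA was present in 9 of 45 replication genes (20.0%) and 26 of 37 mitosis genes (70.27%), against 17.51% of all genes. Among all genes called lower at 12 h, 8.98% held an E2F form and 12.89% TTTGAA, and among those called higher 3.14% and 14.95%. The Gli form GACCACCCA was in 5 of 1047 genes called lower (0.48%), 2 of 669 called higher (0.30%) and 43 of all 16854 (0.26%). A match describes these letters only and shows no binding.

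The same lists were followed from 6 to 24 h, each time against its own vehicle arrays. At 6 h 378 genes were called (1.75%), at 12 h 2120 (9.84%) and at 24 h 7095 (32.9%). Replication genes lower numbered 6, 44 and 53 of 53 at 6, 12 and 24 h, with medians of -0.23, -0.58 and -1.38. Mitosis genes lower numbered 0, 5 and 45 of 47, with medians of 0.08, -0.06 and -1.56. Of all genes 1.18%, 5.99% and 15.3% were lower at 6, 12 and 24 h. Cdk1 differed by -1.71 ± 0.10 and Mki67 by -1.41 ± 0.12 at 24 h. The 24 h effect was lower than the 12 h effect for 44 of 47 mitosis genes and 38 of 53 replication genes, against 8.02% of all genes in a direct test of the difference.

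**Figure D2:**
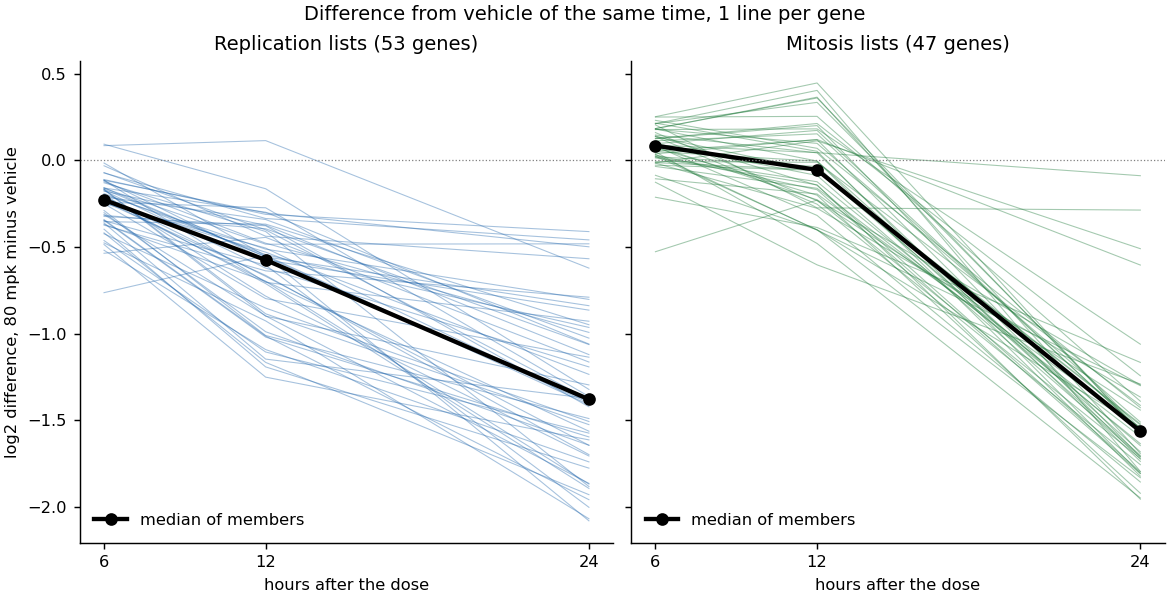
Log2 difference between 80 mpk and vehicle of the same time at 6, 12 and 24 h, 1 line per gene, for 53 replication genes (left) and 47 mitosis genes (right), with the list median as a thick line. At 12 h the replication median is -0.58 and the mitosis median -0.06, and at 24 h they are -1.38 and -1.56.

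The 12 h effects were tested directly against those at 6 and 24 h. Compared with 6 h, 38 genes differed in effect (0.176%), 31 of them with a more negative effect at 12 h (0.144%) and 7 with a more positive one (0.0325%). Several were S-phase genes, namely Hells (-1.05, adjusted p = 0.00494), Ccne2 (-1.03, adjusted p = 0.049), Clspn (-0.96, adjusted p = 0.0179), Mcm2 (-0.79, adjusted p = 0.0445) and Mcm4 (-0.79, adjusted p = 0.00609). These calls depended on single arrays. The 38 became 6 without 80 mpk 12 h replicate 1 or 3. They became 0 without 80 mpk 6 h replicate 3 (1359 at an unadjusted p under 0.05) or with only the groups compared (1628). Gli1 differed by -4.00 ± 0.22 from vehicle at 6 h and -4.48 ± 0.22 at 12 h, and the difference between these effects was not called (-0.48 ± 0.31, adjusted p = 0.734). At 24 h its difference from vehicle was -3.19 ± 0.21, a weaker loss than at 12 h (1.29 ± 0.30, adjusted p = 0.00159). Pdgfa likewise lost some of its 12 h difference by 24 h (0.61 ± 0.19, adjusted p = 0.0159), whereas Wif1 fell further (-2.18 ± 0.32, adjusted p = 7.28e-07).

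The largest moves between times also involved other genes. The more negative effects at 12 h than at 6 h included Rgs1 (-2.67), a regulator of G protein signalling in leukocytes, and the secreted matrix protein Ccn1 (-1.66). Rgs1 was at 0.111, 0.145, 0.135 and 0.0942 in the 80 mpk arrays, against 0.0962, 0.0920, 0.482 and 0.129 in the vehicle arrays, a difference at 12 h of -0.36 ± 0.44, adjusted p = 0.741. At 6 h it was higher with 80 mpk (2.31 ± 0.45, adjusted p = 0.00073), and Ccn1 differed by 0.27 ± 0.27 at 6 h and -1.39 ± 0.26 at 12 h. The progenitor transcription factor Myb followed (-1.09), together with Depp1 (-1.29) and Radx (-1.04). The 7 genes with a more positive effect at 12 h included Dmrta1 (1.04), Katnal2 (0.99), Fbxo25 (0.57), Iftap (0.52), Glt8d1 (0.43) and Pdcd5 (0.36). Between 12 and 24 h 3754 genes differed in effect (17.4%), 2026 of them with a more positive effect at 24 h (9.4%). The 6 most negative were Fdps (-2.40) of sterol synthesis, the mitotic genes Pimreg (-2.21), Ska3 (-2.21) and Kif2c (-2.20), Wif1 (-2.18) and the histone gene H2ac11 (-2.13). The 6 most positive were Lcn2 (6.02), S100a8 (5.15), S100a9 (4.97), Cxcl5 (4.63), Cxcl2 (4.49) and Steap4 (4.42), genes of neutrophils and acute inflammation. In vehicle replicates 3 and 4 at 12 h S100a8 was at 33.0 and 4.82, against 0.0856 to 0.605 with 80 mpk and 0.0904 and 0.204 in vehicle replicates 1 and 2. With the neutrophil list mean as a covariate the S100a8 and S100a9 values were -0.19 and -0.15. That list contains both genes, so the covariate takes up their own difference.

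Several factors of the granule neuron lineage rose with 80 mpk. Of 22 lineage factors 9 rose and 0 fell (0 also at an unadjusted p under 0.05 in limma), with a median difference of 0.30, against 3.85% of all genes higher. Barhl1, a homeobox factor of granule precursors and their descendants, was at 6.99, 6.13, 6.60 and 6.93 in the 80 mpk arrays, against 2.31, 2.84, 2.77 and 3.04 in the vehicle arrays. Its difference was 1.29 ± 0.10 (adjusted p = 1.80e-15), the same within 0.01 by both probe sets. Atoh1, the factor that specifies the lineage and keeps it dividing, was at 29.2, 28.3, 28.8 and 25.8 in the 80 mpk arrays, against 19.1, 21.3, 17.8 and 17.7 in the vehicle arrays, a difference of 0.56 ± 0.12 (adjusted p = 0.000827). Meis1, a homeobox partner in the same cells, was at 14.9, 11.6, 13.7 and 13.5 in the 80 mpk arrays, against 8.15, 8.81, 6.72 and 8.20 in the vehicle arrays, a difference of 0.75 ± 0.09. The groups did not overlap in any of these 3 genes. Neurod6 (1.18), Zic4 (0.65), Lhx9 (0.55) and Nhlh1 (0.44) rose as well, though Nhlh1 was not called without the muscle-rich arrays (0.39, adjusted p = 0.083). Zic1 (0.37, adjusted p = 0.00441) and Nfib (0.29, adjusted p = 0.0416) rose with all arrays and were not called without vehicle replicate 3 (0.29, adjusted p = 0.0559 and 0.25, adjusted p = 0.153). Pax6 (0.51 ± 0.28) and Neurod1 (0.31 ± 0.12) were not called. Without vehicle replicates 3 and 4 Atoh1 differed by 0.47, adjusted p = 0.0522. By 24 h the Atoh1 difference was 0.13 ± 0.12, adjusted p = 0.443.

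Some genes of neuronal structure rose as well, with 8 of 25 higher, 1 lower and a median of 0.26. Stmn2, a microtubule regulator of growing axons, was at 15.8, 17.2, 16.4 and 14.3 in the 80 mpk arrays, against 9.16, 9.42, 8.05 and 9.37 in the vehicle arrays, a difference of 0.82 ± 0.11 (adjusted p = 7.81e-08). Chrna3, a nicotinic receptor subunit, was at 7.497, 7.82, 8.55 and 5.79 in the 80 mpk arrays, against 2.91, 2.86, 2.36 and 2.25 in the vehicle arrays, a difference of 1.51 ± 0.22 (adjusted p = 7.46e-07). The 80 mpk arrays were above all vehicle arrays in both genes. The axon guidance receptor Robo2 rose by 1.35, the neurite protein Nrn1 by 1.16, the adhesion molecule Cntn2 by 0.92 and the neuronal tubulin Tubb3 by 0.46. The exception was the adhesion molecule Nrcam, at 0.179, 0.140, 0.146 and 0.138 in the 80 mpk arrays, against 0.353, 0.368, 0.265 and 0.349 in the vehicle arrays, a difference of -1.14 ± 0.25. Its 5 probe sets disagreed and differed by -1.14 to 0.12, and without the muscle-rich arrays Nrcam was not called (-1.0, adjusted p = 0.05355). Without vehicle replicate 3 the counts were 7 lineage factors and 7 neuronal genes higher, and without vehicle replicates 3 and 4 they were 6 and 5. Robo2 (1.02, adjusted p = 0.08965) and Tubb3 (0.44, adjusted p = 0.0502) were not called without vehicle replicates 3 and 4.

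**Figure D3:**
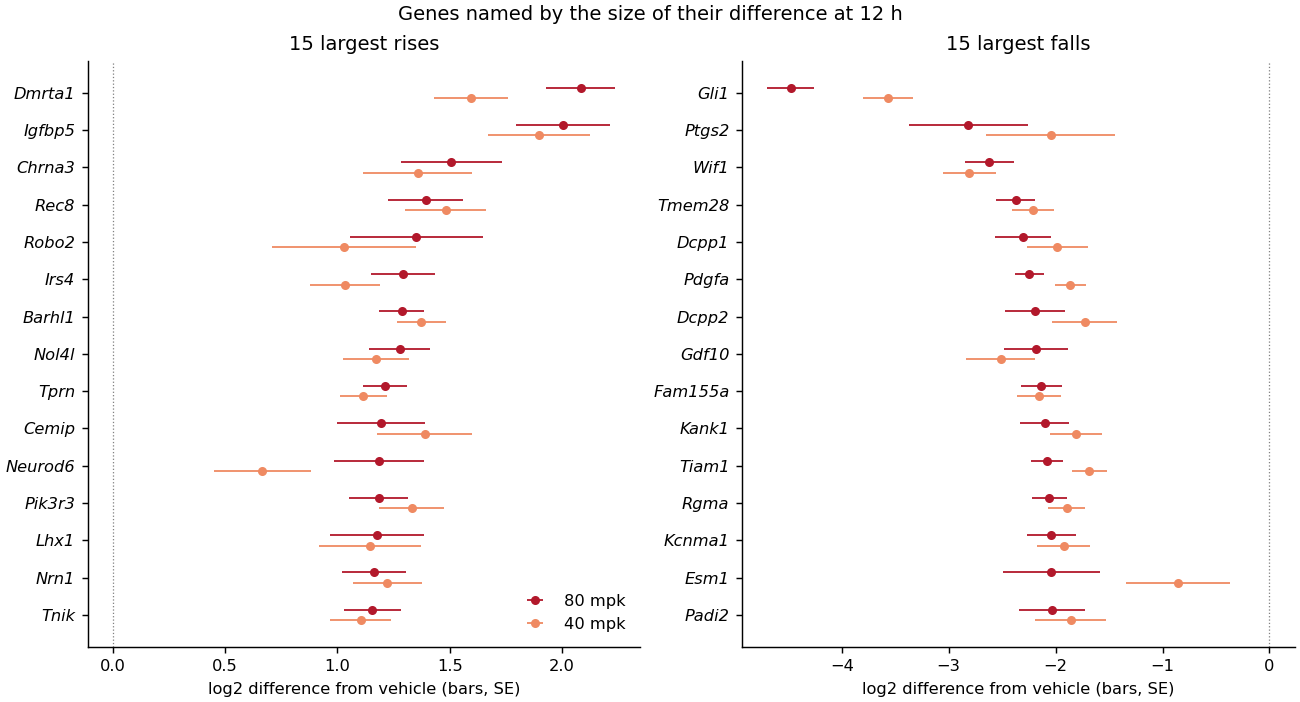
Log2 difference from vehicle at 12 h (points, with SE bars) of the 15 genes with the largest rises (left) and the 15 with the largest falls (right) under 80 mpk, with 80 mpk above 40 mpk for each gene. Both doses are set against the same 4 vehicle arrays. Dmrta1 leads the rises at 2.08 and Gli1 the falls at -4.48, and the 40 mpk points lie on the same side of 0 for all 30 genes.

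The largest changes were chosen for having no overlap with vehicle, so their separation is fixed by that choice. Dmrta1, a transcription factor gene of the doublesex family, was at 0.762, 0.912, 0.903 and 0.882 in the 80 mpk arrays, against 0.208, 0.245, 0.178 and 0.190 in the vehicle arrays, a difference of 2.08 ± 0.15 (adjusted p = 2.37e-16). Igfbp5, which binds insulin-like growth factors, was at 29.0, 26.2, 25.6 and 29.3 in the 80 mpk arrays, against 7.53, 6.96, 6.28 and 6.68 in the vehicle arrays, a difference of 2.004 ± 0.21 (adjusted p = 4.97e-11). Irs4, an adaptor of insulin receptor signalling, was at 0.145, 0.168, 0.195 and 0.204 in the 80 mpk arrays, against 0.0719, 0.0574, 0.0867 and 0.0754 in the vehicle arrays, a difference of 1.29 ± 0.14. The Irs4 difference was 0.22 ± 0.14, adjusted p = 0.22 by 24 h, a change of -1.07 ± 0.20, adjusted p = 8.17e-05 between the times. The other large rises were Rec8 (1.39), a cohesin subunit of meiosis, Lhx1 (1.18), a LIM homeobox factor, Pik3r3 (1.18), a regulatory subunit of PI3-kinase, Tnik (1.16), a kinase of the Wnt pathway, and Nol4l, Tprn and Cemip (1.28, 1.21 and 1.19). Among the falls not described elsewhere were Tmem28 (-2.37), Dcpp1 (-2.31), Dcpp2 (-2.19), Fam155a (-2.13), Kank1 (-2.10), the Rac activator Tiam1 (-2.08), the potassium channel Kcnma1 (-2.04), Esm1 (-2.04), a proteoglycan gene of activated endothelium, and Padi2 (-2.03). Dcpp1 and Dcpp2 are close relatives whose probes may not tell them apart. Ptgs2, the inducible cyclooxygenase, was at 0.102, 0.0838, 0.0874 and 0.0782 in the 80 mpk arrays, against 0.173, 0.270, 3.69 and 0.840 in the vehicle arrays, a difference of -2.82 ± 0.56, and without vehicle replicates 3 and 4 it differed by -1.30, adjusted p = 0.229.

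Secreted signals of other pathways also changed. Wif1, a secreted Wnt antagonist, was at 0.271, 0.505, 0.376 and 0.338 in the 80 mpk arrays, against 2.56, 2.69, 1.61 and 2.25 in the vehicle arrays, a difference of -2.62 ± 0.23 (adjusted p = 1.58e-13), and the groups lay far apart. It was the 1 call among 17 Wnt antagonists and readouts, against 5.99% of all genes lower, so the count was near that share. The Wnt readouts Axin2 and Lef1 differed by 0.15 ± 0.11 and 0.02 ± 0.09. Of 22 growth factor genes 5 fell and 3 rose. Pdgfa, a ligand of the platelet-derived growth factor receptor, was at 0.828, 0.841, 0.628 and 0.911 in the 80 mpk arrays, against 3.52, 3.64, 3.45 and 4.58 in the vehicle arrays, a difference of -2.25 ± 0.14 (adjusted p = 5.41e-20). These groups did not overlap, while a dimmer Pdgfa probe set differed by -0.05 and was not called. Spry4 and Dusp6, feedback inhibitors of receptor tyrosine kinase signalling, fell by 0.90 and 0.40, Irs1 fell by 0.63 and Igfbp2 rose by 0.71. Igfbp2 lost its call without vehicle replicate 3 (0.60, adjusted p = 0.119), vehicle replicate 1 (adjusted p = 0.0527) or 80 mpk replicate 1 (adjusted p = 0.0932), and Dusp6 without 80 mpk replicate 1 (-0.34, adjusted p = 0.0564). Without vehicle replicates 3 and 4 the growth factor list had 3 lower and 2 higher.

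BMP and TGF-beta genes split evenly, 3 of 17 higher and 3 lower. The falls were Gdf10 (-2.18), a ligand of this family, Rgma (-2.06), a BMP co-receptor, and Id1 (-0.56), an early BMP target. Rgma was at 0.267, 0.421, 0.333 and 0.473 in the 80 mpk arrays, against 1.56, 1.52, 1.34 and 1.68 in the vehicle arrays, a difference whose SE was 0.16. The rises were Id2 (0.82), Tgfb2 (0.59) and Bmp5 (0.34). Bmp5 was not called without vehicle replicate 3 (0.26, adjusted p = 0.113). Id1 and Id2 thus moved in opposite directions. Id2, an inhibitor of basic helix-loop-helix factors, was at 1.43, 1.91, 1.79 and 1.48 in the 80 mpk arrays, against 0.842, 0.971, 1.02 and 0.889 in the vehicle arrays. In the Notch list 4 of 14 genes fell, 2 without vehicle replicates 3 and 4, and 1 rose. Hes5, a direct Notch target, fell by 0.96 and Notch1 by 0.59, whereas Hey1, another target, was at 2.81, 2.23, 2.74 and 2.39 in the 80 mpk arrays, against 1.29, 1.39, 0.968 and 1.20 in the vehicle arrays and rose by 1.08 (adjusted p = 3.24e-09). Notch1 lost its call without 80 mpk replicate 3, vehicle replicate 3 or vehicle replicate 4 (adjusted p = 0.0574 to 0.0718). Hes5 lost its call without the muscle-rich arrays (-0.88, adjusted p = 0.0615). The Myc list had 6 of 23 lower and 4 higher, 5 and 1 without the muscle-rich arrays. The lower ones were ribosome biogenesis genes, such as Dkc1 (-0.58), Polr1b (-0.54) and Bop1 (-0.45), and the higher ones network factors, Mycl (0.69), Myc (0.36) and the Myc antagonists Mxd4 (0.51) and Mxi1 (0.44). Myc lost its call without 80 mpk replicate 2 (0.29, adjusted p = 0.116) or vehicle replicate 3 (0.30, adjusted p = 0.107), Mxi1 without vehicle replicate 1 (0.39, adjusted p = 0.0507) and Polr1b without 80 mpk replicate 2 (-0.41, adjusted p = 0.0808).

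Immediate early genes are transcripts that cells switch on within minutes of a stimulus. Of 24 such genes 12 fell and 0 rose (median -0.84; 15 lower and 0 higher at an unadjusted p under 0.05 in limma), a count that rested in part on vehicle replicate 3. Fosl2, a Fos family subunit of AP-1, was at 0.400, 0.364, 0.364 and 0.457 in the 80 mpk arrays, against 1.25, 1.11, 2.65 and 1.62 in the vehicle arrays, a difference of -1.99 ± 0.20 (adjusted p = 2.64e-11). Its partner Jun was at 2.72, 3.16, 2.92 and 3.01 in the 80 mpk arrays, against 5.20, 4.71, 5.66 and 5.49 in the vehicle arrays, a difference of -0.83 ± 0.10 (adjusted p = 3.70e-09). No 80 mpk array reached the vehicle range in either gene, and without vehicle replicate 3 they differed by -1.73, adjusted p = 2.51e-09 and -0.80, adjusted p = 1.22e-07. Dusp1, a stress-induced phosphatase, was at 1.04, 1.21, 1.26 and 1.07 in the 80 mpk arrays, against 1.39, 1.13, 9.59 and 2.96 in the vehicle arrays. Here vehicle replicate 2 lay within the 80 mpk range and vehicle replicate 3 far above the rest, and the difference of -1.18 ± 0.29, adjusted p = 0.00324 became -0.55, adjusted p = 0.157 without that array. Fos, Egr1, Nr4a1 and Zfp36 likewise lost their calls without it. In all 7 of 24 genes were lower without vehicle replicate 3, namely Fosl2, Jun, Egr2, Egr4, Ier2, Ier3 and Maff, and 6 without vehicle replicates 3 and 4. By 24 h Fosl2 differed by 0.25 ± 0.19, adjusted p = 0.356.

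Hypoxia and glycolysis genes had 10 of 24 lower (median -0.35). Hk2, the hexokinase of proliferating granule precursors, was at 3.37, 2.97, 2.76 and 4.15 in the 80 mpk arrays, against 9.01, 9.85, 9.64 and 11.9 in the vehicle arrays, a difference of -1.62 ± 0.12 (adjusted p = 7.09e-17). Vegfa, the endothelial growth factor, was at 1.05, 0.650, 0.638 and 0.662 in the 80 mpk arrays, against 1.55, 1.40, 1.76 and 2.12 in the vehicle arrays, a difference of -1.20 ± 0.29 (adjusted p = 0.00314). The groups did not overlap in either gene, though Vegfa was not called without the muscle-rich arrays (-1.08, adjusted p = 0.0818). Egln3, an oxygen-sensing hydroxylase, was at 0.0629, 0.0758, 0.0762 and 0.0680 in the 80 mpk arrays, against 0.139, 0.0937, 0.597 and 0.255 in the vehicle arrays, and its difference of -1.58 ± 0.32 was -1.08, adjusted p = 0.0126 without vehicle replicate 3. The list count was 4 without vehicle replicate 3, namely Hk2, Vegfa, Egln3 and Ldha, and 1 without vehicle replicates 3 and 4. Neutrophil list means were highest in the same vehicle arrays. With that list mean as a covariate limma called Fosl2 (-1.77), Jun (-0.80), Dusp1 (-0.75, adjusted p = 0.00909), Hk2 (-1.65) and Egln3 (-1.38, adjusted p = 0.00126). Fos (-0.97, adjusted p = 0.114) and Egr1 (-0.86, adjusted p = 0.0581) were not called with it. Without vehicle replicates 3 and 4 limma called Fosl2 (-1.58), Jun (-0.75) and Hk2 (-1.53). Dusp1 (-0.14, adjusted p = 0.9075) and Egln3 (-0.69, adjusted p = 0.2818) were not called without those arrays. The part of neutrophils in these results was not tested beyond these values. Summed over 10 neutrophil genes, scaled intensities were 1.15, 1.69, 2.16 and 2.71 in 80 mpk arrays, against 0.885, 1.15, 101 and 15.6 in vehicle arrays.

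**Figure D4:**
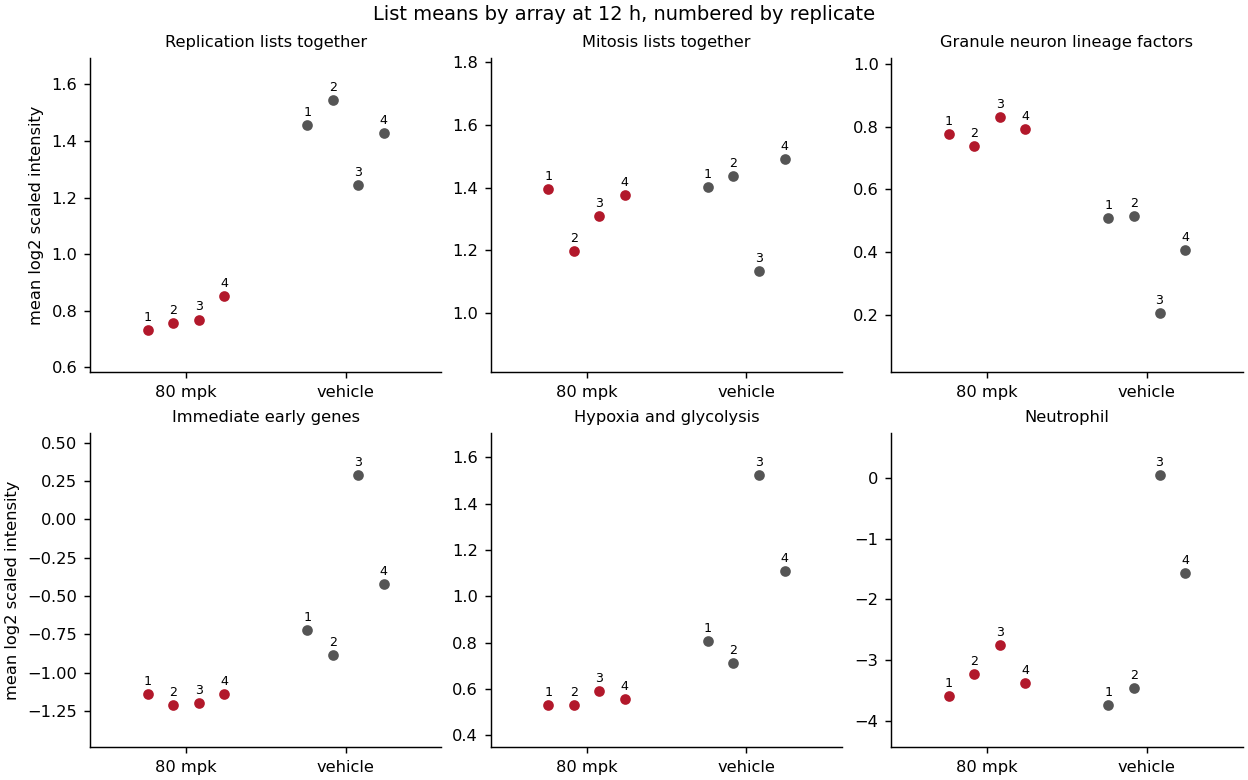
Mean log2 scaled intensity of 6 gene lists in each 12 h array, 80 mpk on the left and vehicle on the right, each point numbered by its replicate and each panel on its own axis. Replication means separate (0.73 to 0.85 with 80 mpk, 1.24 to 1.54 with vehicle), and mitosis means overlap only through vehicle replicate 3. That array is the highest for immediate early, hypoxia and neutrophil genes.

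**Figure D5:**
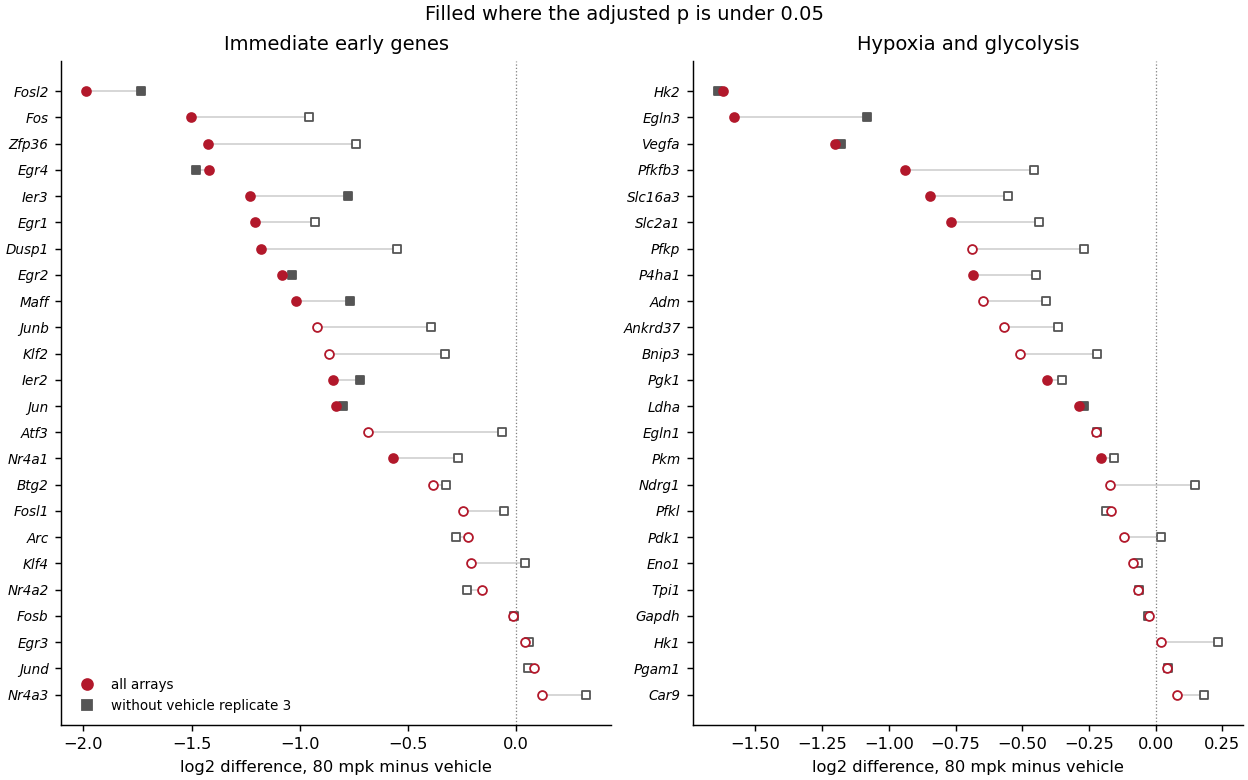
Log2 difference between 80 mpk and vehicle at 12 h for each immediate early gene (left) and each hypoxia and glycolysis gene (right), with all arrays (circles) and without vehicle replicate 3 (squares), filled where called. Calls number 12 and 10 with all arrays and 7 and 4 without that array.

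Stress and metabolic programmes gave mixed results. Of 21 p53 response and death genes 4 rose and 4 fell (median -0.04). Trp53inp1, a stress-induced regulator of autophagy and death, was at 7.07, 6.86, 7.501 and 6.99 in the 80 mpk arrays, against 3.08, 3.43, 3.37 and 3.31 in the vehicle arrays, a difference of 1.11 ± 0.12 (adjusted p = 2.61e-10) with no overlap. Ddit4, an inhibitor of mTORC1, rose by 0.92, Sesn1 by 0.59 and the death inducer Bbc3 by 0.47. The death inducer Bcl2l11 fell by 0.64 and the survival factors Bcl2 and Mcl1 by 0.55 and 0.59. Without vehicle replicate 3 Bcl2l11 and Mcl1 were not called (-0.39, adjusted p = 0.127 and -0.39, adjusted p = 0.0653), whereas Bcl2 was (-0.52, adjusted p = 0.00336). Gadd45b was at 0.357, 0.486, 0.402 and 0.424 in the 80 mpk arrays, against 0.568, 0.531, 4.43 and 1.48 in the vehicle arrays, a difference of -1.51 ± 0.37, adjusted p = 0.00288, and without vehicle replicate 3 it differed by -0.88, adjusted p = 0.106. Without that array the list had 4 genes higher and 1 lower.

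Sterol synthesis and LXR genes had 5 of 24 lower (median -0.13). Cyp51, which demethylates lanosterol, was at 2.17, 2.11, 1.90 and 2.26 in the 80 mpk arrays, against 3.20, 3.27, 2.39 and 3.34 in the vehicle arrays, a difference of -0.52 ± 0.14 (adjusted p = 0.00857) with no overlap. Its 24 h difference of -2.04 ± 0.13 was larger (-1.52 ± 0.19, adjusted p = 3.16e-08). Fdps and Sqle of the same pathway differed by 0.06 ± 0.24 and -0.02 ± 0.20 at 12 h, neither called. After a second quantile normalization 2 sterol genes were lower, and without the muscle-rich arrays 1. The calls of Idi1 (-0.50), Msmo1 (-0.49) and Sc5d (-0.38) were lost with any of 7, 6 and 6 arrays left out singly. Clock genes gave 4 calls of 17, all lower, with Hlf (-1.16, adjusted p = 3.08e-09), Nfil3 (-0.83), Bhlhe40 (-0.70) and Clock (-0.20). Bhlhe40 was not called without vehicle replicate 3 (-0.48, adjusted p = 0.125), nor Clock without 80 mpk replicate 3 (-0.17, adjusted p = 0.102) or 80 mpk replicate 1 (-0.19, adjusted p = 0.0512). The core repressors Per2 and Cry1 differed by 0.10 ± 0.13 and -0.18 ± 0.12, neither called, and without vehicle replicates 3 and 4 the clock list had 1 call. In the glucocorticoid list 4 of 13 fell, among them Fkbp5 (-0.72) and the receptor Nr3c1 (-0.68), and 2 rose. Nr3c1 lost its call without 80 mpk replicate 1, vehicle replicate 1 or vehicle replicate 3 (adjusted p = 0.0766 to 0.159). Without vehicle replicate 3 the glucocorticoid list had 1 lower and 2 higher.

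Markers of cell types other than the granule lineage mostly gave no call. In RNA of the whole allograft, transcripts of these genes cannot be assigned to host or tumour cells. The muscle, fibroblast, macrophage, adipocyte, neutrophil, erythroid, T and natural killer cell and keratinocyte lists had 0 limma calls. At an unadjusted p under 0.05 they had 0 genes except for 5 of 10 neutrophil genes lower and 1 keratinocyte gene each way. Over all 21552 genes there were 4381 at that level, both directions together. The median difference was 1.499 over 14 muscle genes and -0.56 over 10 neutrophil genes, where the arrays of a group were far apart. Of 8 astrocyte genes 1 fell and 0 rose (median -0.34), with 3 lower and 0 higher at an unadjusted p under 0.05. Astrocyte list means (mean log2) were -1.29, -1.21, -1.06 and -1.23 in 80 mpk arrays and -0.57, -0.98, -0.85 and -0.89 in vehicle arrays, which did not overlap, and their part in the other results was not tested. The gene that fell was the glutamate transporter Slc1a3 (-0.38 ± 0.13, adjusted p = 0.0498), and the astrocyte list had 0 calls with any 1 of replicates 1, 2 and 4 of either group left out. Among 12 endothelial genes the receptors of Vegfa, Flt1 and Kdr, fell by 0.75 and 0.74, and Pecam1 and Cdh5 differed by -0.37 ± 0.36 and -0.03 ± 0.36, neither called. Endothelial list means (mean log2) were -1.69, -1.60, -1.55 and -1.39 in 80 mpk arrays, against -1.59, -1.66, -0.98 and -1.23 in vehicle replicates 1 to 4. Vehicle replicates 3 and 4 were thus the highest, and the Flt1 and Kdr differences were not computed without them. Flt1 was at 0.276, 0.249, 0.260 and 0.299 in the 80 mpk arrays, against 0.370, 0.362, 0.516 and 0.624 in the vehicle arrays, with no overlap, and by 24 h it was higher with 80 mpk (0.63 ± 0.18, adjusted p = 0.00436). Of 8 oligodendrocyte genes 1 rose and 1 fell (median -0.15). The myelin gene Mbp was at 1.99, 1.89, 1.89 and 2.09 in the 80 mpk arrays, against 1.54, 1.49, 1.52 and 1.66 in the vehicle arrays, with no overlap and a difference of 0.34 ± 0.09, adjusted p = 0.00889. Olig1, a factor of the oligodendrocyte lineage also made by precursor cells, was at 0.572, 0.439, 0.496 and 0.581 in the 80 mpk arrays, against 1.51, 1.71, 1.36 and 1.72 in the vehicle arrays, a difference of -1.60 ± 0.20 (adjusted p = 1.85e-08), while its relative Olig2 differed by -0.34 ± 0.19. Without the 3 muscle-rich arrays the replication lists had 37 of 53 genes lower and the mitosis lists 2 of 47, and with the neutrophil list mean as a covariate 50 and 5.

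The lower dose, 40 mpk, was set against the same 4 vehicle arrays, so the doses share them. At 40 mpk limma called 1400 genes (6.5%), 841 higher (3.9%) and 559 lower (2.59%). Replication genes lower numbered 44 of 53 with 80 mpk (median -0.58) and 40 with 40 mpk (median -0.56). Mitosis genes lower numbered 5 of 47 with 80 mpk (median -0.06) and 1 with 40 mpk (median 0.01). Gli1 was at 0.108, 0.114, 0.0959 and 0.149 with 80 mpk and 0.189, 0.214 and 0.252 with 40 mpk. The 80 mpk values lay below all 3 values of 40 mpk, yet the direct difference of -0.91 ± 0.23 was not called (adjusted p = 0.105).

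Tested directly, the 2 doses differed for 13 genes (0.0603%), 6 higher (0.0278%) and 7 lower (0.0325%) with 80 mpk, with 2355 genes at an unadjusted p under 0.05. Zbtb40, a zinc finger gene, was at 0.459, 0.434, 0.433 and 0.669 with 80 mpk and 0.828, 0.809 and 0.880 with 40 mpk, a difference of -0.78 ± 0.13, adjusted p = 0.00168. Tmem248 was at 1.48, 1.32, 1.35 and 1.81 with 80 mpk and 2.07, 1.89 and 2.19 with 40 mpk, a difference of -0.47 ± 0.08, adjusted p = 0.00169. The groups did not overlap in either gene. The next largest falls were Fancb (-0.58), Vax2 (-0.43), Sp1 (-0.38) and Rab23 (-0.36), a small GTPase that restrains hedgehog signalling. The 6 rises were Fam227b (0.58), Mrps18c (0.54), Eef1akmt2 (0.53), Fkbp3 (0.46), Slirp (0.39) and Pdcd5 (0.30). limma called 0 genes between the doses among the hedgehog targets, replication genes and mitosis genes. At an unadjusted p under 0.05 there were 3 of 16 targets, 10 of 53 replication genes and 4 of 47 mitosis genes lower with 80 mpk, and 1 replication gene higher.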

How the data were processed

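Total RNA of the allografts was measured as biotin-labelled cRNA on 1-colour arrays. The authors deposited a table of intensity values, 1 per probe set, and per the submitters' processing notes used RMA, with settings not given in the sources used here. Values ran from 0.0166 to 99.9 and averaged 1 on each array, so the deposited intensities were read as linear, and log2 was taken without a pseudocount. The log2 values planned for were thus computed here. The genome build and array annotation version are not given in the sources used here.

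Of 43681 probe sets 30342 had 1 gene symbol and 13339 none. Symbols were updated through the RefSeq gene table by accession (15257), symbol (11330) or synonym (3702), and 53 were kept as given. Each gene took the probe set with the highest mean over all arrays (6060 genes had several), leaving 21552 genes with no filter. Among unnamed probe sets 40 were called higher and 76 lower.

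All 75 arrays were fitted in limma 3.58.1 (R 4.3.3) with 1 mean per group of 19, 56 residual and 3.37 prior degrees of freedom, and Benjamini-Hochberg adjustment over all genes of a contrast. The exact test of 4 against 4 arrays cannot go below 0.0286. The members and gene lists were chosen with earlier results of these data known. The 15 largest rises and falls were taken among called genes whose 80 mpk arrays lay outside the vehicle range, and 6 genes per direction for the other contrasts, leaving out placeholder names. Same-numbered arrays at 12 h deviated from their group means with correlations of -0.09, -0.28, 0.25 and 0.13, so the numbers were not taken to pair the samples. Median absolute log2 differences between arrays of a group were 0.113 to 0.190, and no pair was identical.

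Promoters came from a RefSeq table (GRCm38.p6) that held 16854 of the genes, without entries for Gli1, Boc, Rgma, Ccnd1, Ccne2 and Mcm4. Alternatives were the mean of probe sets, a filter on dim genes (16515 left), quantile normalization, a trended robust prior, array weights, a replicate block, a muscle covariate, a pseudocount of 0.05, only the groups compared, and each array left out. The fit was tested on simulated data. Tables and plots were made with matplotlib 3.10.9, pandas 2.3.3 and numpy 2.4.6 in Python 3.11.15.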

Additional observations from a re-analysis of the deposited data

Results flagged for a closer look

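Arrays that stood far from the other 3 of their group were found in 12 of 202 groups examined, where chance flags about 1 in 20. Vehicle replicate 3 stood apart 6 times. It was low for Ccnb2 (scaled intensity 3.82), Nrcam (0.26), Cyp51 (2.39), the E2F list (mean log2 0.16) and the neuronal list (0.0672), and high for the keratinocyte list (-2.003). Vehicle replicate 4 was high for the hedgehog transduction list (0.0751) and vehicle replicate 1 for the muscle list (3.65). Among 80 mpk arrays, replicate 1 was high for Vegfa (1.05) and low for the fibroblast list (1.06), replicate 2 was low for the mitotic kinase list (1.24), and replicate 4 was high for Zbtb40 (0.669).

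The effect of 80 mpk differed between 12 and 6 h for 38 genes. For the 12 h effect minus the 6 h effect, positive values were Dmrta1 1.04, Katnal2 0.99, Fbxo25 0.57, Iftap 0.52, Glt8d1 0.43 and Pdcd5 0.36. Negative values were Rgs1 -2.67, Ccn1 -1.66, Depp1 -1.29, Myb -1.09, Hells -1.05, Radx -1.04, Ccne2 -1.03, Clspn -0.96, Mcm2 -0.79, Mcm4 -0.79 and Jun -0.71.

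The effect differed between 24 and 12 h for 3754 genes. For the 24 h effect minus the 12 h effect, genes of inflammation had the largest positive values, Lcn2 6.02, S100a8 5.15, S100a9 4.97, Cxcl5 4.63, Cxcl2 4.49 and Steap4 4.42. In vehicle replicates 3 and 4 at 12 h these transcripts were raised, and for S100a8 and S100a9 the value changed sign with the neutrophil covariate, a mean that contains both genes and so takes up their own difference. Other positive values were Fosl2 2.24, Dusp1 1.99, Gadd45b 1.72, Flt1 1.38, Egln3 1.31, Gli1 1.29, Jun 0.90, Trp53inp1 0.69, Pdgfa 0.61 and Tmem248 0.34. Negative values were Fdps -2.40, Pimreg -2.21, Ska3 -2.21, Kif2c -2.20, Wif1 -2.18, H2ac11 -2.13, Ccnb2 -2.02, Cdk1 -1.62, Cyp51 -1.52, Mki67 -1.40, Irs4 -1.07, Wee1 -0.69, Clspn -0.67 and Mcm2 -0.58.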

How the results depend on the processing

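Gli1 kept its direction and call under every alternative run, at -3.99 with a pseudocount of 0.05 and -4.60 to -4.39 with 1 array left out. The replication count of 44 lower was 36 to 50 under all alternatives run and 40 to 45 with 1 array left out. The count of 829 genes higher was 405 with only the groups compared and 426 without vehicle replicates 3 and 4, and that of 1291 lower was 602 and 812. With 1 array left out these counts were 549 to 780 and 960 to 1384, the 549 without vehicle replicate 3. The mitosis count of 5 was 3 with the mean of probe sets, 3 after quantile normalization, 3 without vehicle replicates 3 and 4, 2 with only the groups compared, 2 without the muscle-rich arrays, and 2 to 5 with 1 array left out.

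The 38 genes that differed between 12 and 6 h were 20 after quantile normalization, 146 with array weights, 0 with only the groups compared (1628 at an unadjusted p under 0.05), 12 without vehicle replicates 3 and 4, 12 without muscle-rich arrays and 67 with the neutrophil covariate. With 1 array left out they were 0 (80 mpk 6 h replicate 3, 1359 unadjusted) to 64 (vehicle 6 h replicate 5). The 3754 between 24 and 12 h were 1226 without vehicle replicates 3 and 4, 1196 with the neutrophil covariate, and 2152 (without vehicle 12 h replicate 3) to 4315 with 1 array left out. The 13 between doses were 7 with the mean of probe sets, 7 after quantile normalization, 1616 with array weights, 0 with only the groups compared (2653 unadjusted), 2 without muscle-rich arrays and 46 with the neutrophil covariate. With 1 array left out they were 0 (40 mpk replicate 3, 1506 unadjusted) to 200 (80 mpk replicate 4). The counts between times and doses thus depended on single arrays, and the causes were not tested.

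Of single genes, Pkm turned to 0.0944 with the mean of probe sets, and the change from 12 to 24 h turned to -0.19 for S100a8 and -0.15 for S100a9 with the neutrophil covariate, a list mean that contains both genes. With the replicate number as a block, which does not pair these samples, the counts were 822 higher, 1289 lower, 45 replication, 4 mitosis, 34, 3479 and 15, and Gli1 differed by -4.48. The vehicle and muscle-rich omissions and the neutrophil covariate were chosen after seeing the data. Dim probe sets and few arrays limit the precision.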
